A study of Mus musculus with 9 samples.

Results

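The Th1 program is represented here by 10 genes read by symbol from the count table, which holds 45808 genes. They are Tbx21, which encodes the transcription factor T-bet, its target Ifng, the interleukin-12 (IL-12) receptor genes Il12rb1 and Il12rb2 with their signal transducer Stat4, the IL-18 receptor genes Il18r1 and Il18rap, and the regulators Hopx, Bhlhe40 and Runx3. All 10 were found. Their levels were compared in CD4 T cells positive for ICOS that were sorted out of tumours of the mouse colon carcinoma MC38 in C57BL/6J mice at day 12 after the tumour cells were injected. ICOS is a surface receptor of activated T cells, which both helper and regulatory T cells carry. The 3 groups were Control mice, mice given anti-CTLA-4 and mice given anti-PD-1, with 3 libraries in each, and every mouse carried an MC38 tumour. The libraries are described as coming from individual mice, while what the controls received, the antibody clones, doses and schedule, and the sex and age of the mice were not stated.

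Naive CD4 T cells become Th1 cells when antigen and interferon gamma induce T-bet, after which IL-12 drives the cell further along this path. The IL-12 receptor is a pair of chains: Il12rb1 is shared with the IL-23 receptor, Il12rb2 is induced on Th1 cells and docks STAT4, and both are needed for high-affinity binding. IL-18 acts beside IL-12 through a second pair, the binding chain Il18r1 and the signalling chain Il18rap, and together the cytokines raise interferon gamma, the product by which Th1 cells are known in tumours. Runx3 works with T-bet at Ifng, Bhlhe40 favours inflammatory cytokines and holds back IL-10, and Hopx is found in long-lived Th1 cells and also in regulatory T cells.

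Gene counts summed to 25530333 to 41508589 per library, so that 3 counts, the floor used here, equal 0.0723 to 0.118 CPM, counts per 1000000 gene counts. Most of 10 markers of CD4 T cells were high in 8 libraries, but Lck was at 3.71 CPM in Control replicate 1. In anti-PD-1 replicate 2 Lck and Zap70 were at 4.86 and 0.121 CPM. The sum of the 10 was 6883 to 9742 CPM in these 8 libraries and lower in anti-CTLA-4 replicate 2, at 3240 CPM. That library also held the fewest genes at 5 CPM or more, 2662 against 4209 to 6309, and a sum of 12 macrophage and monocyte markers of 7222 CPM against 205 to 785 CPM in the other 8. Its sum of 7 fibroblast and tumour markers was 1587 CPM against 89.1 to 376 CPM. That sum came from the collagen genes Col1a1, Col1a2 and Col3a1, at 369, 615 and 603 CPM. The other markers of the list were not raised there, with Dcn at 0.0281 CPM against 0.0302 to 67.3 CPM elsewhere, and Epcam, Krt8 and Krt18 at 0. Markers of regulatory T cells, which carry ICOS and CTLA-4, were abundant, with a sum of 8 genes of 10943 to 17100 CPM in the other 8 libraries and 4602 CPM in this one. In it Cd4 stood at 24.5 CPM and Cd3e at 0.590 CPM, against 308 to 808 CPM and 347 to 838 CPM elsewhere. Cd3d, Cd3g and Trac went the other way, at 696, 649 and 632 CPM there against at most 289, 579 and 612 CPM elsewhere. Of the macrophage and monocyte markers, Cd14, Fcer1g, Adgre1 and Fcgr3 were not raised there, at 0, 0.0562, 11.1 and 7.59 CPM. Fitted changes that rest on this library are given with and without it. The part of the other cells in these results was not tested. In bulk RNA, fewer cells of a type and less RNA per cell cannot be told apart.

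The label names T-bet first, but the gene was not the most abundant member. Scaled to exon length, the mean over 9 libraries was highest for Il12rb2 at 214 CPM per kb. Next came Hopx at 136 CPM per kb, Bhlhe40 at 119.8 CPM per kb, Runx3 at 74.5 CPM per kb and Il18r1 at 57.2 CPM per kb. Stat4 at 25.03 CPM per kb, Ifng at 17.3 CPM per kb, Tbx21 at 11.8 CPM per kb, Il18rap at 5.24 CPM per kb and Il12rb1 at 1.72 CPM per kb followed. Neighbours in this order overlapped over the libraries in every case. Without anti-CTLA-4 replicate 2 the mean of Stat4 was 6.54 CPM per kb, below Ifng at 19.5 CPM per kb and Tbx21 at 13.3 CPM per kb. Hopx, at 83.1 CPM per kb without it, stood below Bhlhe40 at 100.3 CPM per kb. By the median over all 9, Bhlhe40 and Runx3 stood above Hopx, Ifng above Stat4, and Il18rap above Tbx21.

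**Figure D1:**
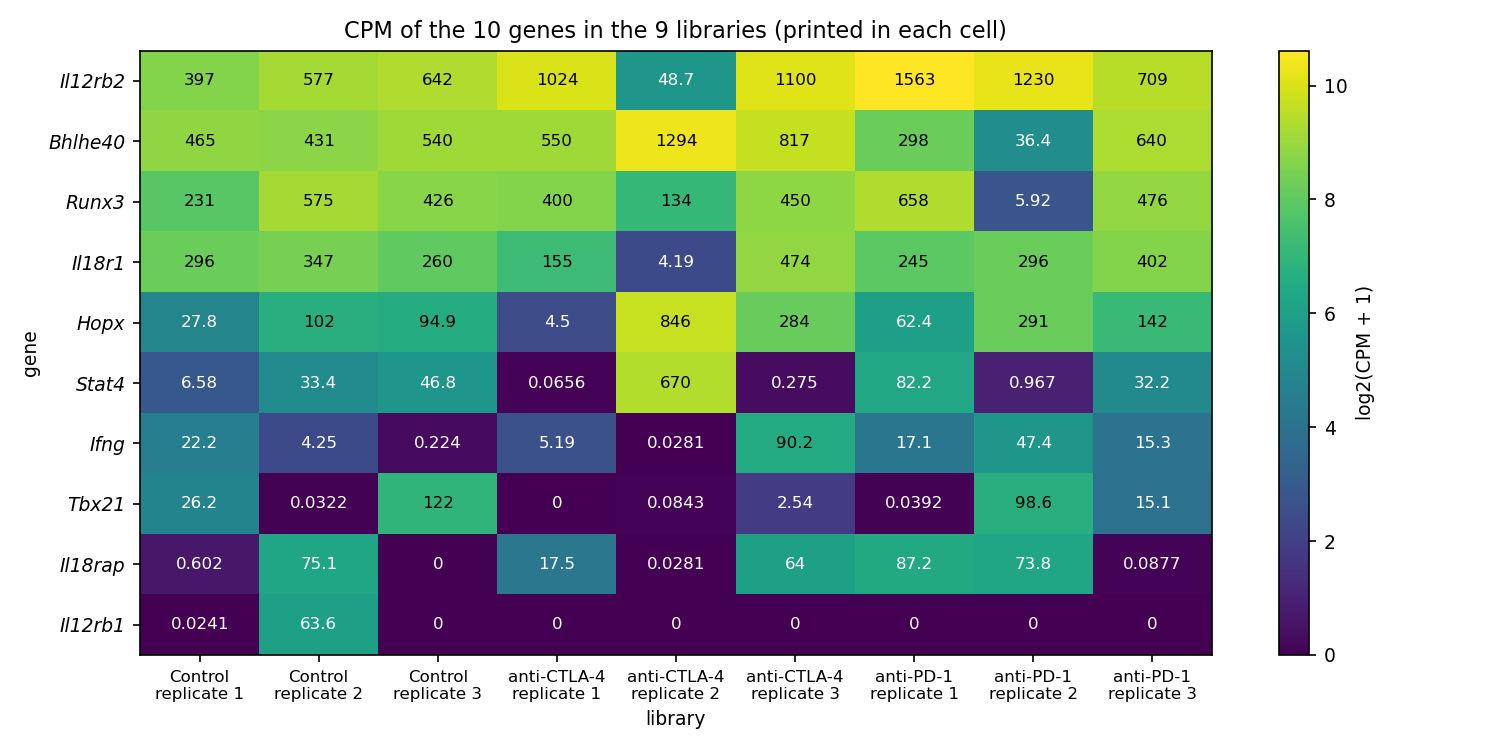
CPM of each gene (rows) in each library (columns), with the colour giving log2(CPM + 1). The upper 4 rows are high in nearly all libraries, and Hopx below them runs from 4.50 to 846 CPM. The rows under Hopx switch between well above 5 CPM and at or near 0 from one library to the next.

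The genes fell into those that were detected in nearly all libraries and those that were detected in some libraries only. Whether an undetected gene was absent from the cells of that mouse or lost from the library was not tested. Il12rb2, Bhlhe40 and Runx3 reached 5 CPM in 9 of 9 libraries, and Il18r1 and Hopx in 8. Ifng and Stat4 reached it in 6, Il18rap in 5, Tbx21 in 4 and Il12rb1 in 1. The all-or-nothing pattern was not particular to these genes. Of 7858 genes with enough counts to be tested, 67.5% had at least 1 library at or under 3 counts and another at 5 CPM or more, and 4 of the 9 tested members did so (Tbx21, Ifng, Stat4 and Il18rap). Il12rb1 had too few libraries with counts to be tested. A library held 5 to 8 of the 10 genes at 5 CPM, fewest in anti-CTLA-4 replicate 2, where 31.2% of the tested genes reached that level against 49.7% to 71.4% elsewhere.

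**Figure D2:**
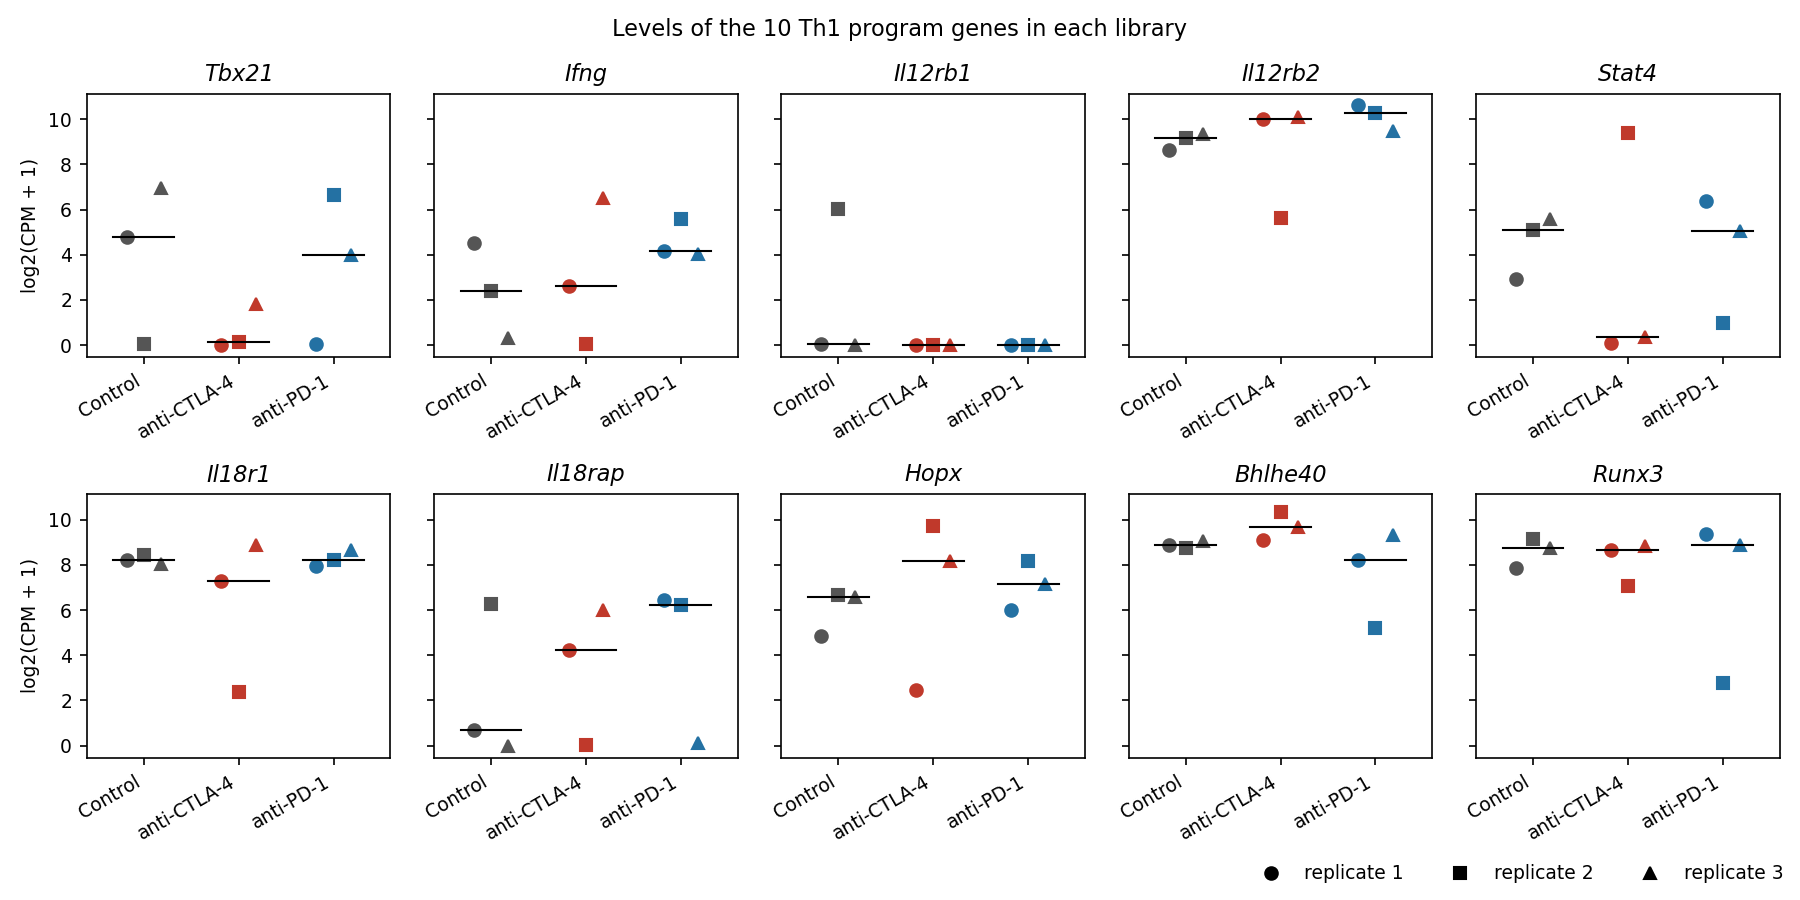
Levels of the 10 genes as log2(CPM + 1) (vertical axis) by group, with 1 point per library, the marker shape giving the replicate and the line the median of 3. Il12rb2 in anti-PD-1 and Bhlhe40 in anti-CTLA-4 lie above every control, and the groups of the other genes overlap.

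Promoter sequences show the DNA in front of the abundant receptor chain and of the cytokine that the program ends in. RefSeq windows of 250 bases before to 50 after a start (GRCm38.p6) held 8 of the 10 members, in 13 windows, without Il12rb1 and Bhlhe40. They were searched on both strands for motifs of the factors among the members. The STAT motif TTCNNNGAA, which reads the same on both strands, was found in 3 of 13 windows (Il18r1, Il12rb2 and Ifng) and in 8.30% of all 32851 windows. The Runx motif TGTGGT was found in 3 (Il18r1, Il18rap and Runx3) and in 16.8% of all, the E-box CACGTG, which factors such as Bhlhe40 bind, in 1 (Hopx) and in 7.15%, and the T-box element AGGTGTGA in 0 and in 1.28%. No 2 matches overlapped. The 250 bases before the start are printed 5′ to 3′ on the gene's strand, with the STAT motif in capitals, for Il12rb2 (chr6:67376189-67376438, minus strand) and Ifng (chr10:118440796-118441045, plus strand).
Il12rb2: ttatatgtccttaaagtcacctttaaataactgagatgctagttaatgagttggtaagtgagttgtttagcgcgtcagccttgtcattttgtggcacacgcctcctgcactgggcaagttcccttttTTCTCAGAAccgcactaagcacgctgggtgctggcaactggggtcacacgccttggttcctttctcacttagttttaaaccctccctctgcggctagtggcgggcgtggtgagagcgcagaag
Ifng: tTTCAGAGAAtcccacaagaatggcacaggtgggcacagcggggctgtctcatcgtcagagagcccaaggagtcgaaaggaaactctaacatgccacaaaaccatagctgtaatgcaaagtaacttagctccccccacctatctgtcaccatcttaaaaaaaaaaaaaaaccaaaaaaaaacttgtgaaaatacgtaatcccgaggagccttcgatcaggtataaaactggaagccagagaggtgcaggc
The match in Il12rb2 begins 123 bases before the start and that in Ifng at the second base of the window. A match describes letters in the window and not a bound site, and Il12rb2 and Ifng, which both hold one, differed in how many libraries they reached 5 CPM in, 9 and 6.

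The IL-12 receptor was measured as one abundant chain and one that was almost absent. Il12rb2 (ENSMUSG00000018341, GRCm38 chromosome 6, 67291318 to 67376188, minus strand) stood at 397, 577 and 642 CPM in Control replicates 1, 2 and 3. The mice given anti-CTLA-4 had 1024, 48.7 and 1100.3 CPM, and those given anti-PD-1 had 1563, 1230.2 and 709 CPM. All 3 anti-PD-1 libraries and 2 of 3 anti-CTLA-4 libraries were thus above every control, and anti-CTLA-4 replicate 2 was far below them. Group means were 539 ± 127 CPM in controls, 724 ± 586 CPM under anti-CTLA-4 and 1167 ± 430.5 CPM under anti-PD-1 (SD, n = 3). Under anti-PD-1 the fitted log2 fold change against controls was 1.38 (SE 0.79, adjusted p = 0.914, edgeR's quasi-likelihood test). Over 18 alternative fits it kept this direction at 1.07 to 1.66, and the lowest adjusted p was 0.497. Under anti-CTLA-4 it was 0.65 (SE 0.78, adjusted p = 1), and 1.16 (SE 0.44, adjusted p = 0.657) without replicate 2. Il12rb2 therefore did not pass in any comparison.

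Il12rb1 (ENSMUSG00000000791, GRCm38 chromosome 8, 70808449 to 70821424) had 1978 counts, or 63.6 CPM, in Control replicate 2 and 1 count in Control replicate 1. It had 0 counts in the remaining 7 libraries, where a count of 0 allows up to 0.118 CPM at the shallowest library. Il12rb2 was thus read without its partner chain in 8 of 9 libraries. Mast3, the gene beside Il12rb1, was at 95.1 to 199 CPM in 7 libraries and at 0.0656 and 0.169 CPM in anti-CTLA-4 replicates 1 and 2. Some members share exon bases with other annotated genes. For Ifng 25.9% and for Stat4 26.7% are shared with a predicted gene on the same strand, and for Hopx 27.2% with the antisense gene Hopxos, which had 0 counts. The predicted gene at Stat4, Gm28177, had 0 counts, and no level was available for that at Ifng, Gm49751. Whether reads in the same-strand parts were dropped as ambiguous was not tested. For Il12rb2, 40.0% of exon bases lie opposite exons of Serbp1, an RNA-binding protein gene that stood at 183 to 823 CPM. The name given to the count table mentions the first strand, but the counting setting is not stated, so reads of the pair may not be fully separate there. Serbp1 was highest in anti-CTLA-4 replicate 2, where Il12rb2 was lowest.

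**Figure D3:**
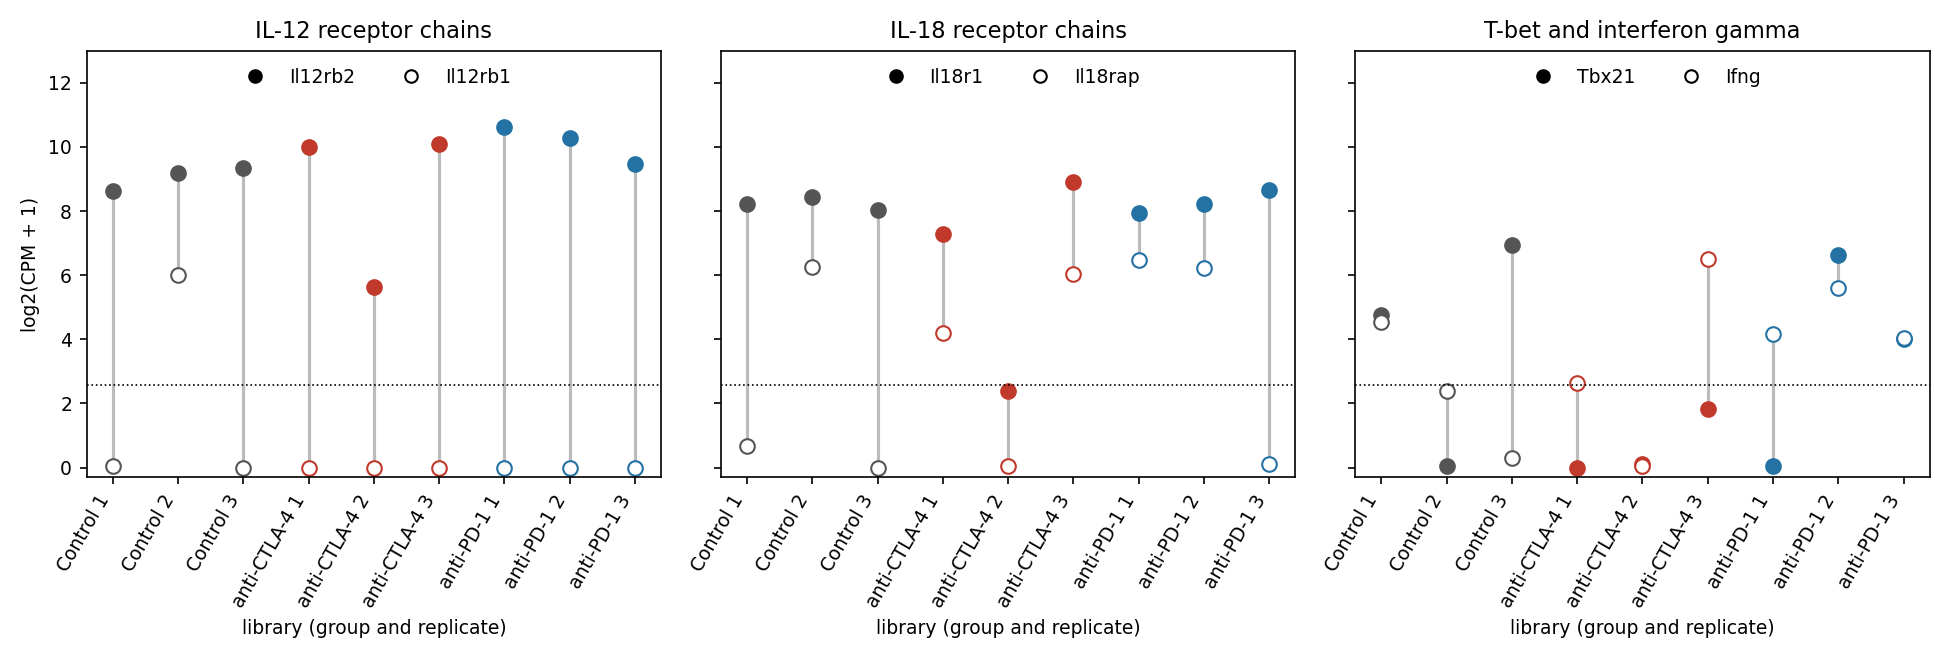
Paired levels as log2(CPM + 1) (vertical axis) in each library (horizontal axis, coloured by group) for Il12rb2 and Il12rb1, Il18r1 and Il18rap, and Tbx21 and Ifng, with filled points for the first named gene and open points for the second. The dotted line marks 5 CPM, which Il12rb1 passed in 1 library, Il18rap in 5 and Tbx21 in 4.

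Stat4 (ENSMUSG00000062939, GRCm38 chromosome 1, 51987148 to 52107189), the transducer that Il12rb2 recruits, was present in every control at 6.58, 33.4 and 46.8 CPM. Mice given anti-CTLA-4 had 0.0656, 669.6 and 0.275 CPM, and those given anti-PD-1 had 82.2, 0.967 and 32.2 CPM. Replicates 1 and 3 of anti-CTLA-4 were thus below every control and replicate 2 above every library. The fit over all libraries gave anti-CTLA-4 a log2 fold change of 4.57 against controls (SE 1.69, adjusted p = 0.370). Without replicate 2 this turned to -7.16 (SE 5.16, adjusted p = 0.666), so that 1 mouse set the direction. Il12rb2 and Stat4 reached 5 CPM together in 6 of 9 libraries, and in the other 3 Il12rb2 was present alone.

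The IL-18 receptor pair was measured more evenly. Il18r1 (ENSMUSG00000026070, GRCm38 chromosome 1, 40465552 to 40500854) stood at 296, 347 and 260.0 CPM in controls. Mice given anti-PD-1 had 245, 296 and 402 CPM, and those given anti-CTLA-4 had 155, 4.19 and 474 CPM. Controls and anti-PD-1 libraries lay in one range, and the low value was again in anti-CTLA-4 replicate 2. The fitted changes were small beside their errors, at -0.31 under anti-CTLA-4 (SE 1.31, adjusted p = 1) and 0.30 under anti-PD-1 (SE 1.31, adjusted p = 0.9998). Without anti-CTLA-4 replicate 2 the former was 0.28 (SE 0.75).

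Il18rap (ENSMUSG00000026068, GRCm38 chromosome 1, 40515362 to 40551705) begins 14508 bases after Il18r1 ends, on the same strand, but did not follow it. It stood at 0.602, 75.1 and 0 CPM in controls, at 17.5, 0.0281 and 63.97 CPM under anti-CTLA-4, and at 87.2, 73.8 and 0.0877 CPM under anti-PD-1. Each group thus held at least 1 library well above 5 CPM and at least 1 near 0. Both IL-18 receptor genes reached 5 CPM in 5 libraries, Il18r1 alone in 3, and neither in anti-CTLA-4 replicate 2. Il18rap was never found without Il18r1. The gene before them in the same cluster, Il1rl1, which encodes the IL-33 receptor, was present in all 9 libraries at 71.2 to 283 CPM, and its last exon ends 137 bases before Il18r1 begins.

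T-bet transcripts were scarce. Tbx21 (ENSMUSG00000001444, GRCm38 chromosome 11, 97098071 to 97115331) stood at 26.2, 0.0322 and 122 CPM in controls and at 0.0392, 98.6 and 15.1 CPM under anti-PD-1. Mice given anti-CTLA-4 had 0, 0.0843 and 2.54 CPM, or 0, 3 and 83 counts. No anti-CTLA-4 library reached 5 CPM, against 2 of 3 in each other group, but a control and an anti-PD-1 library were as low, so the groups overlapped. The fitted log2 fold change of anti-CTLA-4 was -5.53 against controls (SE 3.71, adjusted p = 0.603) and -5.64 against anti-PD-1 (SE 3.73, adjusted p = 0.521). Both kept their direction over 18 alternative fits, at -8.78 to -3.70 and -8.87 to -2.41, with lowest adjusted p of 0.231 and 0.149. They share the anti-CTLA-4 libraries and are not independent of each other. Anti-PD-1 against controls gave 0.12 (SE 3.06, adjusted p = 0.9998), a value whose direction changed with the fit and with the libraries left out.

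Ifng (ENSMUSG00000055170, GRCm38 chromosome 10, 118441046 to 118445892), the signature cytokine of Th1 cells, stood at 22.2, 4.25 and 0.224 CPM in controls. Under anti-CTLA-4 it stood at 5.19, 0.0281 and 90.2 CPM, and under anti-PD-1 at 17.1, 47.4 and 15.3 CPM. Anti-PD-1 was the group in which all 3 libraries had Ifng above 5 CPM, against 2 under anti-CTLA-4 and 1 among controls, and the lowest anti-PD-1 value was below the highest control. The fitted log2 fold changes against controls were 1.92 under anti-PD-1 (SE 3.33) and 2.01 under anti-CTLA-4 (SE 3.34), with an adjusted p of 0.9998 and 1. The latter became -1.69 without anti-CTLA-4 replicate 3, which held the highest Ifng of the study.

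Tbx21 and Ifng were each found with and without the other. Both reached 5 CPM in 3 libraries, Tbx21 alone in 1, Ifng alone in 3, and neither in 2. Control replicate 3, with the highest Tbx21, had Ifng at 0.224 CPM, and anti-CTLA-4 replicate 3, with the highest Ifng, had Tbx21 at 2.54 CPM. Of markers of NK cells and ILC1, which also use T-bet and make interferon gamma, Ncr1, Klrb1c, Klra8, Klra7, Klre1 and Cd160 had 0 counts in all 9 libraries. The sum of 8 NK and ILC1 markers was 0.0643 to 84.4 CPM in controls, 0.0281 to 70.0 CPM under anti-CTLA-4 and 0.0584 to 36.8 CPM under anti-PD-1. Of the other 2 markers, Klra4 made up the sums above the floor in Control replicate 1, anti-CTLA-4 replicate 1 and anti-PD-1 replicate 1. Gzma, the granzyme A gene, stood at 28.8 CPM in Control replicate 3, the library with the highest Tbx21, and under the floor in the other 8. Its part in the Tbx21 value was not tested. Cd8a had 0 counts throughout, and whether such zeros mean no transcript was not tested. Cd8b1 was at 125 CPM in anti-PD-1 replicate 3, where Tbx21 and Ifng stood at 15.1 and 15.3 CPM, and at most at 0.118 CPM elsewhere.

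Runx3 (ENSMUSG00000070691, GRCm38 chromosome 4, 135120652 to 135177990), the partner of T-bet, stood at 231, 575 and 426 CPM in controls, at 400.2, 134 and 450.2 CPM under anti-CTLA-4, and at 658, 5.92 and 476 CPM under anti-PD-1. It was high in 8 of 9 libraries, and its low value was in anti-PD-1 replicate 2, the library with the second highest Tbx21. The fitted log2 changes were 0.16 under anti-CTLA-4 (SE 1.12, adjusted p = 1) and -0.029 under anti-PD-1 (SE 1.12, adjusted p = 0.9998). The related gene Runx1 was present in all libraries at 191 to 756 CPM.

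Bhlhe40 (ENSMUSG00000030103, GRCm38 chromosome 6, 108660629 to 108666925) had the least spread among controls for its level, at 465, 431.2 and 539.6 CPM. The anti-CTLA-4 libraries stood at 550.1, 1294 and 817 CPM, all above every control, and the anti-PD-1 libraries at 298, 36.4 and 639.8 CPM. The means were 479 ± 55.5 CPM in controls, 887 ± 377 CPM under anti-CTLA-4 and 325 ± 303 CPM under anti-PD-1 (SD, n = 3). Against controls, anti-CTLA-4 gave a log2 fold change of 1.93 (SE 0.82, unadjusted p = 0.0194, adjusted p = 0.432, edgeR), and 0.70 (SE 0.60, adjusted p = 0.777) without replicate 2. The fitted change exceeds the ratio of the CPM means because the normalization factor of replicate 2 was 0.403, against 0.833 to 1.26 in the other libraries. Against anti-PD-1 it gave 2.41 (SE 0.84, adjusted p = 0.199), the lowest adjusted p of any member in the 3 comparisons. Without anti-CTLA-4 replicate 2 this was 1.19 (SE 0.60, adjusted p = 0.523).

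Hopx (ENSMUSG00000059325, GRCm38 chromosome 5, 77086988 to 77115121) stood at 27.8, 102 and 94.9 CPM in controls, at 4.50, 846 and 284 CPM under anti-CTLA-4, and at 62.4, 291 and 142 CPM under anti-PD-1. Values of the 2 antibody groups reached well above the controls, but anti-CTLA-4 replicate 1 was the lowest library of all. The fitted log2 fold change against controls was 3.71 under anti-CTLA-4 (SE 1.25, adjusted p = 0.244) and 1.53 under anti-PD-1 (SE 1.15, adjusted p = 0.9998). Without anti-CTLA-4 replicate 2 the former was 1.19 (SE 1.32, adjusted p = 0.943). Hopx, Stat4 and Bhlhe40 were the 3 members that were highest in anti-CTLA-4 replicate 2, while Il12rb2, Il18r1 and Ifng were lowest there.

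**Figure D4:**
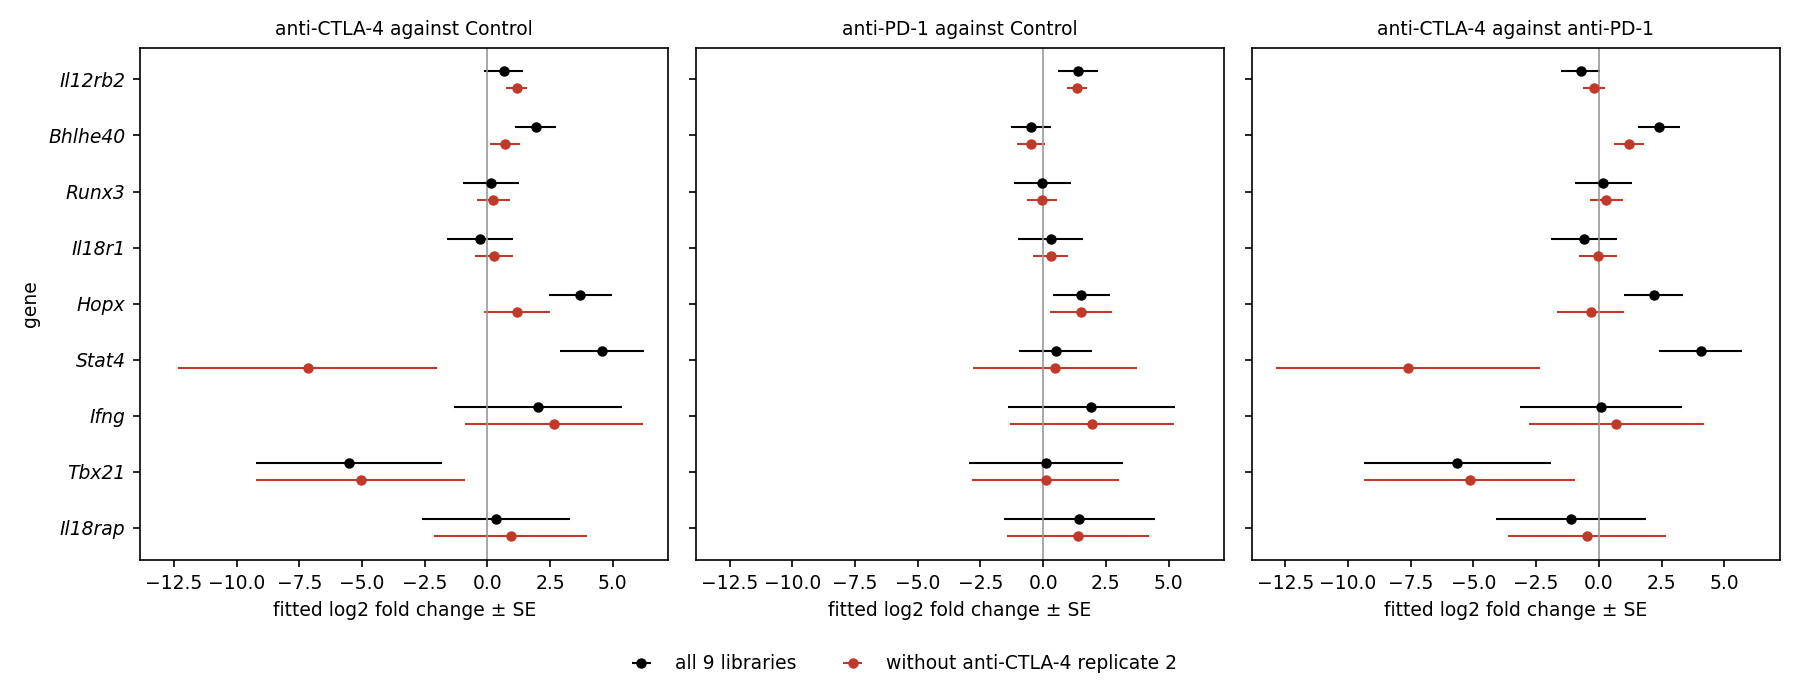
Fitted log2 fold changes (horizontal axis) with SE bars for the 9 tested genes (vertical axis) in the 3 comparisons, over all 9 libraries in black and without anti-CTLA-4 replicate 2 in red. In both comparisons of anti-CTLA-4, Stat4 changes side without that library, Bhlhe40 moves towards 0 and Hopx moves to 1.19 and -0.33. The bars of Il12rb2, Bhlhe40, Runx3 and Il18r1 become shorter without it.

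None of the 9 tested members passed an adjusted p of 0.05 in any comparison. For anti-CTLA-4 against controls 0 of 9 passed with edgeR, where 0.369% of all tested genes did, and 3 had an unadjusted p under 0.05 (Stat4, Hopx and Bhlhe40), as did 11.3% of all tested genes. Without anti-CTLA-4 replicate 2 only Il12rb2 did, in edgeR's fit of this comparison, as did 410 of all 9308 genes tested then. For anti-PD-1 against controls 0 of 9 passed, where 0.0764% of all genes did. An unadjusted p under 0.05 was found for 0, against 6.01% of all. Without anti-CTLA-4 replicate 2 it was found for 1, Il12rb2, and for 755 of all 9308 genes. For anti-CTLA-4 against anti-PD-1 0 of 9 passed, where 0.827% did. Stat4 and Bhlhe40 had an unadjusted p under 0.05, against 14.1% of all. Without anti-CTLA-4 replicate 2 Bhlhe40 alone did, as did 732 of all 9308 genes. So few genes passed in all that a count of 0 among 9 says little about the members. DESeq2, which called 10%, 7.55% and 15.2% of genes in the 3 comparisons, gave an adjusted p to 5 of the 9 (Tbx21, Il12rb2, Il18r1, Il18rap and Runx3) and also called 0. Its unadjusted p was under 0.05 for Tbx21 in both comparisons that involve anti-CTLA-4. The same held for 1189 of the 7858 genes fitted against controls and for 1340 against anti-PD-1.

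Groups that did not overlap were found for 1 of 9 members, Bhlhe40, in anti-CTLA-4 against controls, and for 1, Il12rb2, in anti-PD-1 against controls. They were found for 0 in anti-CTLA-4 against anti-PD-1. Over all tested genes the shares were 11.9%, 10.8% and 9.76%, so the members were near this background. The median fitted log2 change of the 9 was 0.65, 0.50 and 0.085 in the 3 comparisons, against 0.0077, 0.074 and -0.049 over all tested genes. Under anti-CTLA-4 7 of the 9 had a positive change against controls, where 3943 of all 7858 tested genes did. Under anti-PD-1 also 7 did, against 4121 of 7858, and the comparisons share the controls. For anti-CTLA-4 against anti-PD-1 5 of the 9 did, against 3858 of 7858.

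Genes around these members were read from 6 lists of 68 genes. In total 48 were tested, and edgeR called 0 of them in each comparison, with an unadjusted p under 0.05 for 5, 1 and 5. Over all tested genes these shares were 11.3%, 6.01% and 14.1%, so the lists did not exceed them. Their median log2 change was -0.092 under anti-CTLA-4 and -0.11 under anti-PD-1 against controls, and 0.46 between the antibodies. Of the ligands, Il12a and Il18 had 0 counts in every library, and Il12b, the larger IL-12 subunit, stood at 47.7 CPM in anti-PD-1 replicate 2 and at or under the floor in the other 8. Among IL-12 and IL-27 receptor signalling genes, 6 of 10 were tested and the transducer gene Stat3 stood at 335 ± 226 CPM in controls, 574 ± 43.8 CPM under anti-CTLA-4 and 327 ± 124 CPM under anti-PD-1. Among IL-18 signalling genes, 7 of 10 were tested, led by the receptor kinase gene Irak1, at 30.4 ± 21.1, 166 ± 194 and 94.3 ± 72.9 CPM, and the ubiquitin ligase gene Traf6, at 129 ± 117, 83.4 ± 101 and 66.7 ± 103 CPM. Without replicate 2 the anti-CTLA-4 mean was 58.7 CPM for Irak1 and 125.03 CPM for Traf6. No gene of the IL-18 list reached 5 CPM in all 9 libraries.

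Of the interferon gamma receptor only 1 chain was read. Ifngr1, the ligand-binding chain, stood at 988 ± 294 CPM in controls, 722 ± 242 CPM under anti-CTLA-4 and 684 ± 125 CPM under anti-PD-1. Without anti-CTLA-4 replicate 2 its anti-CTLA-4 mean was 859 CPM. Ifngr2, the signalling chain, had 0 counts in all 9 libraries. The induced GTPase gene Igtp stood at 364 ± 120.4, 524 ± 134 and 570.3 ± 65.3 CPM for these groups in turn. Its anti-CTLA-4 mean was 460 CPM without replicate 2. Of this list 9 of 10 genes were tested, and 6 reached 5 CPM in all libraries. Whether 0 counts in every library mean no transcript or a limit of the count table was not tested, for Ifngr2 or for other genes.

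Among partner transcription factors 7 of 10 were tested, and Eomes, the relative of T-bet in cytotoxic cells, had 0 counts throughout. Prdm1, which encodes the effector regulator Blimp-1, stood at 303 ± 89.2, 95.2 ± 84.4 and 279.7 ± 238 CPM, with 142.5 CPM under anti-CTLA-4 without replicate 2. Among Th1 surface receptors and cytokines 11 of 14 were tested. The selectin ligand gene Selplg stood at 226 ± 98.8, 96.6 ± 77.1 and 329.7 ± 143 CPM, with 138 CPM under anti-CTLA-4 without replicate 2. Of other helper lineages 8 of 14 were tested. Their most abundant genes were the Th2 regulator Gata3, at 399 ± 312, 363 ± 333 and 301 ± 139 CPM, and Rora, at 303 ± 132, 237 ± 190.5 and 439 ± 216 CPM. Without replicate 2 the anti-CTLA-4 means were 544.2 CPM for Gata3 and 332.7 CPM for Rora. Il17a and Il17f had 0 counts.

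The genes most like Tbx21 and Ifng over the libraries were sought by the root mean square distance between centred profiles of log2(CPM + 1), over 9 libraries and 8502 other genes that averaged 5 CPM or more. For Tbx21 they were Vps37c at 0.73, Cfap36 at 0.86 and Mtrf1l at 0.96 log2 units. For Ifng they were Safb at 0.98, Ugdh at 1.14 and Fbxo32 at 1.14 log2 units. No member was among them: the member nearest to Ifng was Il12rb2, ranked 105 at 1.61, and the member nearest to Tbx21 was Il18r1, ranked 1294 at 2.71. Tbx21 and Ifng were 3.21 log2 units apart. The distances describe these libraries, which share wide gaps in detection.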

How the data were processed

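RNA from sorted ICOS+ CD4 T cells was amplified with a single-cell kit and sequenced, per the labels' protocols. The authors' deposited file gives raw read counts, 1 row per symbol and 1 column per mouse, not normalized. The tools TopHat2, HTSeq and DESeq2 and the build GRCm38 come from lists per the submitters' processing notes. Versions, annotation and strand setting were not given in any source used here. Entries that name no gene (HTSeq summaries, 59.3% to 67.1% of all counts) entered neither library sizes nor tests. Reads were not collapsed to molecules, and a floor reflects counting error alone. No batch is given in the labels.

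CPM were computed from the counts without further factors. edgeR 4.0.16 (R 4.3.3; quasi-likelihood test, robust fit, TMM factors, minimum count 10) was fitted over all 9 libraries and 7858 genes with the group as the only term, with Benjamini-Hochberg adjustment over all tested genes and a threshold of 0.05. The SE is approximate, the size of a change divided by the root of its F statistic. DESeq2 1.42.0, limma 3.58.1 (voom), RLE factors, library totals, 2 other filters, fits of 2 groups, a replicate block, each library left out, and the 2 libraries with the fewest genes left out were the alternatives. The fits were run on simulated data, and the only condition set was recovery of very large changes at a low spread. The common coefficient of variation of these libraries was 1.84. That condition therefore does not show which changes could have been found here. Each library is 1 mouse, and p-values rest on the spread between libraries. In that spread, differences between mice cannot be told apart from those of amplification and library preparation.

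The members and gene lists were chosen with earlier results of these data known. The text names the members, the 2 most abundant genes of each list with any called, and the 3 genes nearest to Tbx21 and Ifng. Of the list genes this names, 2 are not reported here. Symbols matched GENCODE M21 (GRCm38) for all 10 members, which gave coordinates, exon lengths and neighbours. Other genes (Serbp1, Mast3, Il1rl1, Il12b, Ifngr2, those at 0 and those DESeq2 called) were named after their values were seen.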

Additional observations from a re-analysis of the deposited data

How the results depend on the processing

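No member was called in any of the 54 alternative counts (18 alternative fits in 3 comparisons), and the lowest adjusted p of a member in them was 0.0795 (Bhlhe40, anti-CTLA-4 against anti-PD-1). Of 474 member changes refitted, 423 kept their direction and 51 turned, and for those that turned the cause was not tested unless a library left out is named. The count of all genes called moved strongly. For anti-CTLA-4 against controls it was 29, and 558 with DESeq2, 0 with RLE factors, 0 with library totals, 64 with no filter, 17 with the 5 CPM filter, 0 with voom, 10 with the replicate block, 1 with 2 groups only, 1 without the 2 libraries with the fewest genes, and 0 to 79 with a library left out (0 without anti-CTLA-4 replicate 2). For anti-PD-1 against controls it was 6, and 421, 0, 0, 2, 3, 2, 1, 0, 2 and 0 to 5 in the same order. For anti-CTLA-4 against anti-PD-1 it was 65, and 847, 0, 6, 98, 38, 0, 12, 31, 16 and 6 to 145. Where edgeR or voom called 0, unadjusted p was under 0.05 for 1118 (RLE), 697 (totals), 550 (voom) and 410 genes (without anti-CTLA-4 replicate 2) in the first comparison, for 511 (RLE), 414 (totals), 269 (2 groups) and 456 (without Control replicate 3) in the second, and for 1261 (RLE) and 561 (voom) in the third. DESeq2 also called list genes. With anti-CTLA-4 against controls it called 1 in the IL-12 and IL-27 list (Tyk2) and 3 among Th1 receptors and cytokines (Ccl3, Ccl4 and Cxcr6), all lower. With anti-PD-1 against controls it called 1 (Tnf, lower). Between the antibodies it called 1 (Tyk2), 4 (Ccl3, Ccl4, Cxcr6 and Tnf) and 1 (Il23r). Of these, Tnf and Il23r were higher under anti-CTLA-4 than under anti-PD-1, and Tyk2, Ccl3, Ccl4 and Cxcr6 were lower. Over all genes DESeq2 called 10%, 7.55% and 15.2% in the 3 comparisons.

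The labels give replicate numbers but no pairing of the mice. Deviations of same-numbered libraries correlated at -0.035 to 0.018 over 9 pairs, and of differently numbered ones at -0.023 to 0.030 over 18. Most tested genes switched on and off between libraries, so these values cannot decide whether same-numbered mice were paired. With the replicate block, Stat4 was -0.40 against controls and -1.97 against anti-PD-1, Ifng -0.88 and Il18rap 2.86 in the latter comparison, and Tbx21 -2.47 for anti-PD-1 against controls.

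Log2 changes that turned for anti-CTLA-4 against controls were Il18r1 (0.0066 with DESeq2, 0.0063 with RLE factors, 0.27 without the 2 libraries), Runx3 (-0.32 with totals), Hopx (-0.19 with voom) and Stat4 (-4.76 with voom, -7.16 without the 2 libraries). For anti-PD-1 against controls they were Runx3 (0.11 with DESeq2, 0.11 with RLE factors, 0.52 without the 2 libraries), Tbx21 (-0.38 with totals, -0.98 with voom, -2.65 without the 2 libraries) and Bhlhe40 (0.026 without them). Between the antibodies they were Ifng (-0.027 with RLE factors, -0.88 with voom), Runx3 (-0.21 with totals), Stat4 (-5.11 with voom), Il18rap (1.49 with voom) and Hopx (-1.15 with voom). Without the 2 libraries this comparison gave Runx3 -0.28, Stat4 -8.19, Il18rap 0.074, Il12rb2 0.038 and Il18r1 0.11. With 1 library left out, the range against controls with anti-CTLA-4 was -1.69 to 4.07 for Ifng, -1.76 to 0.28 for Il18r1, -1.36 to 6.59 for Il18rap, -0.17 to 0.38 for Runx3 and -7.16 to 4.98 for Stat4. With anti-PD-1 it was -1.41 to 0.053 for Bhlhe40, -0.72 to 0.56 for Runx3, -0.74 to 1.07 for Stat4 and -2.62 to 1.95 for Tbx21. Between the antibodies it was -0.33 to 3.03 for Hopx, -3.59 to 1.09 for Ifng, -0.44 to 0.81 for Runx3 and -7.62 to 5.12 for Stat4.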
